A study of Mus musculus with 6 samples.

Results

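Hypoxia-inducible factor (HIF) pathway regulators and their targets outside glycolysis were followed in RAW264.7, a macrophage-like mouse cell line, given lipopolysaccharide (LPS) with or without bone marrow stromal cells (BMSCs). The members were 10 genes found by symbol among the 21958 gene rows with values, each on 1 row. They were 6 regulators (Hif1a, Arnt, Egln1, Egln3, Vhl and Hif1an) and 4 targets (Bnip3, Higd1a, Ndrg1 and Ankrd37). There were 2 groups of 3 poly(A)-selected RNA-seq libraries. The first group was RAW264.7 cells with LPS alone, and the second was the same line with LPS in co-culture with BMSCs. All 6 libraries thus had LPS, and with no library free of LPS or under set oxygen, each difference below is one between co-culture and LPS alone. The labels call the replicates biological but do not say which cultures they came from, so p-values measure the spread between these libraries. The dose and duration of LPS, the oxygen level, the species of the BMSCs and whether the cell types touched are not stated there. For LPS replicate 3 the title reads RAW264.9 and the cell line field RAW264.7. The study's design text asks whether BMSCs and the growth factor bFGF on a printed scaffold change the inflammatory response of these cells; neither scaffold nor bFGF is named in the sample labels.

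HIF-1 is a pair of proteins, an oxygen-sensitive alpha subunit encoded by Hif1a and a stable partner encoded by Arnt. In oxygenated cells, prolyl hydroxylases encoded by Egln1 and Egln3 mark the alpha subunit for the ubiquitin ligase that contains the Vhl protein, and the asparaginyl hydroxylase encoded by Hif1an blocks its binding to the coactivators p300 and CBP. The pathway is thus controlled largely at the level of protein, which mRNA counts do not show. In macrophages, LPS is known to raise Hif1a mRNA and protein also in normal oxygen, and the pathway is known there for its part in glycolysis and Il1b expression. Egln1, Egln3, Bnip3, Higd1a, Ndrg1 and Ankrd37 are all known targets of HIF, so that Egln1 and Egln3 form a negative feedback.

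HIF binds a hypoxia response element whose core is ACGTG or GCGTG. RefSeq promoter windows (GRCm38.p6) were searched for both cores on both strands, in the 250 bases before the transcription start, for the 9 members with a window; Ndrg1 had none in the table used. A match is a description of the letters and not a site. Of the 9 windows, 5 held ACGTG, against 16.6% of all 32817 windows, and 5 held GCGTG, against 28.1%. At least 1 core stood in 7 of the 9 windows, against 38.6% of all windows, and those of Vhl and Hif1an held neither. The members were chosen as HIF pathway genes, and the other windows were not matched for GC content. These shares are thus no test of an excess of cores. The sequence CACGTG, which reads as ACGTG on both strands, occurred in the windows of Bnip3 and Hif1a and in 6.02% of all windows. The Bnip3 window had the most matches, 3 to GCGTG and 2 to ACGTG, the latter both from its CACGTG. The last 120 bases before the start are printed for the 4 members whose mRNA was called higher and whose window held a core, with the whole window of Hif1a, whose mRNA was not called, for comparison. Each is on the gene's own strand, 5′ to 3′, and capitals mark the cores, which read CACGT or CACGC where they lie on the opposite strand.
Bnip3, chr7:138909507-138909626, minus strand: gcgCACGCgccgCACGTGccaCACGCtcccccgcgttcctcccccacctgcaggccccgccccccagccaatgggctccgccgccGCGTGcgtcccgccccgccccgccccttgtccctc
Higd1a, chr9:121857797-121857916, minus strand: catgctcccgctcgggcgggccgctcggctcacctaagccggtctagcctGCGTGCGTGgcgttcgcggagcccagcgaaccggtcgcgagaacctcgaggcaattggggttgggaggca
Ankrd37, chr8:45999851-45999970, minus strand: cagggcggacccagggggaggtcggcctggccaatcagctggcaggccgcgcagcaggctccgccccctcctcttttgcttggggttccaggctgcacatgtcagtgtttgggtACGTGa
Egln1, chr8:124949255-124949374, minus strand: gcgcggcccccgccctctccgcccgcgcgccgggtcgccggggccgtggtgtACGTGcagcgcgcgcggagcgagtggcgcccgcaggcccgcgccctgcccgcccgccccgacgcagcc
Hif1a, chr12:73907617-73907866, plus strand: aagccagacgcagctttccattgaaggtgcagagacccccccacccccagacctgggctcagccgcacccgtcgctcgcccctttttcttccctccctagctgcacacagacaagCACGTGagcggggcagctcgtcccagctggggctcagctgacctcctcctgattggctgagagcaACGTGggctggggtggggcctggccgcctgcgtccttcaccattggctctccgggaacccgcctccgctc

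In Ankrd37 the nearest core began 6 bases before the RefSeq start. Outside the stretch printed, another ACGTG began 241 bases before the start, and 2 GCGTG, on opposite strands, at 155 and 152 bases before it. In Egln1 an ACGTG began 68 bases before the start and a GCGTG 126 bases before it. In Higd1a both matches were GCGTG and overlapped each other, at 70 and 66 bases before the start. Arnt had 1 GCGTG, 29 bases before its start, and Egln3 1 ACGTG, 229 bases before its start. The windows are counted from RefSeq starts, several of which, those of Hif1a and Ankrd37 among them, lie inside the gene span that GENCODE M21 gives.

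**Figure D1:**
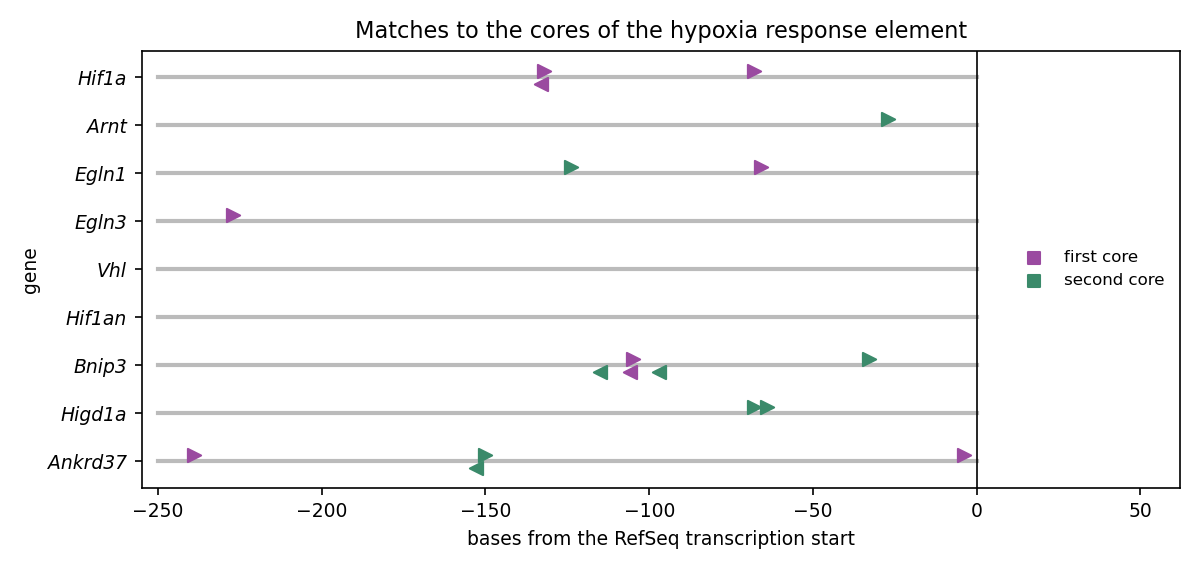
Matches to the cores ACGTG (first core, purple) and GCGTG (second core, green) in the 250 bases before the RefSeq transcription start of 9 members; the horizontal axis is the distance from the start in bases, and triangles point right for the gene's own strand and left for the opposite strand. Bnip3 holds 5 matches, and Vhl and Hif1an hold none.

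Across the series, total gene counts ran from 17716460 to 22539884 per library, so that 3 counts, the detection floor used here, were 0.133 to 0.169 CPM before scaling. CPM are counts brought to one common library size, here with TMM scaling factors. Co-culture replicates differed more from each other than LPS replicates did, at a chi-square per degree of freedom of 5.16 to 26.8 against 1.71 to 2.11 between pairs, and co-culture replicates 1 and 3 were farthest apart. The labelled cell type was checked on 10 macrophage markers, which were all detected. They summed to 18850 to 19280 CPM with LPS alone and to 27060 to 29670 CPM in co-culture. Lyz2 alone made up a mean of 10960 and 17950 CPM of these sums. Of the 10, 5 were called higher (Cd14, Lyz2 and Fcgr3 had the smallest p) and 2 lower (Ptprc and Mpeg1). With library totals 4 were lower, and after a correction for gene length and GC content Cd68 went from 0.56 to -0.27 and was called lower, and Ptprc from -0.93 to 0.04 and was not called (log2 fold changes). With that correction Cd14 went from 0.88 to 0.27, Lyz2 from 0.71 to 0.12 and Fcgr3 from 1.08 to 0.61, still called higher. Cd68, Ptprc and Mpeg1 are named after their values were seen. Of 15 stromal markers, 5 were at 0 in every library (Col1a2, Col3a1, Thy1, Postn and Cxcl12), 10 never exceeded 3 counts, and 4 were tested, with Acta2 called higher, Lum lower, and Eng (log2 fold change 0.16, adjusted p 0.308) and Dcn, named after its values were seen, not called. Their summed level was 19.95 to 20.41 CPM with LPS alone and 27.67 to 30.04 CPM in co-culture. Acta2 alone had means of 10.15 and 18.26 CPM, so most of this rise was that of 1 gene. Of 9 mitochondrial mRNAs, read as a sign of RNA quality, 3 were called higher and 2 lower, against 1 and 4 with library totals and 1 and 5 after the length and GC correction. They included mt-Nd5 (1.99-fold lower), mt-Co1 (1.4-fold lower) and mt-Nd4 (1.22-fold higher, but not called with library totals, adjusted p 0.0883), and summed to 26560 to 27570 CPM with LPS alone and 20370 to 24550 CPM in co-culture. The part of these shifts in the results below was not tested, and in bulk RNA fewer cells of a type cannot be told apart from less RNA per cell.

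With co-culture, 6 of the 9 members with enough counts to test rose, 2 fell and Hif1a was not called. The gain was largest for the targets Ndrg1 (3.93-fold) and Higd1a (3.09-fold), followed by Egln1 (2.11-fold) and Ankrd37 (2.0-fold, at low counts), and smaller for Vhl (1.63-fold) and Bnip3 (1.31-fold). Arnt and Hif1an, the partner of HIF-1 alpha and the enzyme that blocks its coactivators, fell 1.37-fold and 1.2-fold. Genes were called at an adjusted p of 0.05 in edgeR's quasi-likelihood test, with Benjamini-Hochberg adjustment over all 11103 genes tested. Most tested genes passed it, 37.5% of them higher and 38.0% lower, so a call alone sets no member apart. A gain of 2-fold or more was seen in 8.31% of tested genes and in 3 of the 9 tested members (Egln1, Higd1a and Ndrg1), and a loss of that size in 10.2% of genes and no member. Ankrd37 lay just under that line, at 1.999-fold. Egln1 was also under 2-fold, a log2 of 1, with library totals (0.90) and after the length and GC correction (0.75). On TMM-scaled CPM, the groups of libraries did not overlap for 8 of the 9, Hif1a being the exception, against 80.2% of tested genes. On FPKM, scaled by library totals, the groups of Hif1a did not overlap and those of Bnip3 did. The median log2 fold change was 0.71 over the 9 tested members and 0.001 over all tested genes.

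**Figure D2:**
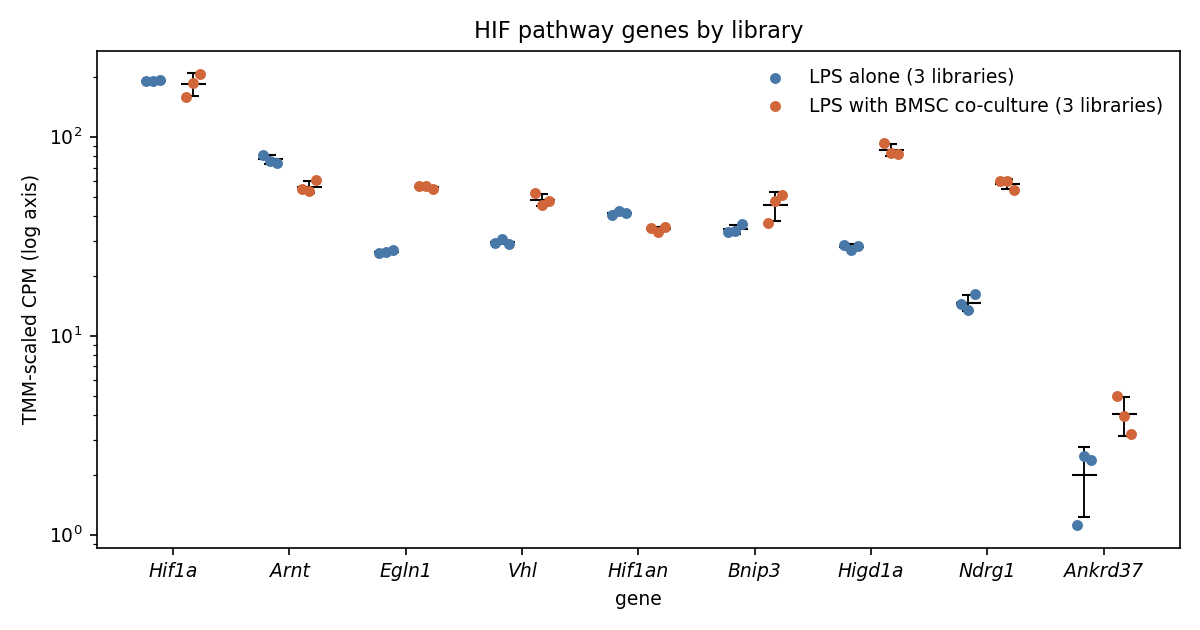
TMM-scaled CPM (log axis) of the 9 tested members in each of 3 libraries with LPS alone and 3 with BMSC co-culture; points are libraries and black bars are the mean ± SD. The groups stand apart for Ndrg1, Higd1a and Egln1, whereas the co-culture values of Hif1a lie on both sides of its LPS values and those of Bnip3 begin just above its LPS values.

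Hif1a (ENSMUSG00000021109, chromosome 12 from 73901375 to 73947530 in GRCm38), which encodes the oxygen-sensitive subunit, had the highest mean per length of the members in both groups, at 34.48 ± 0.272 FPKM (the authors' counts divided by gene length and library total) with LPS alone and 29.4 ± 4.43 FPKM in co-culture (mean ± SD, n = 3 each). It had 189.9, 190.5 and 193.1 CPM in LPS replicates 1, 2 and 3 and 158.8, 186.7 and 206.8 CPM in co-culture replicates 1, 2 and 3. In CPM the LPS libraries were nearly equal, and the co-culture libraries lay below, close to and above them, differing 1.3-fold among themselves. On FPKM, all co-culture libraries (24.61, 30.22 and 33.36) were below all LPS libraries (34.25 to 34.78). The log2 fold change was -0.05 (SE 0.09, adjusted p 0.578 in the edgeR test), so the difference was smaller than the spread between co-culture libraries. It depended on the treatment of fold changes that varied with the length and GC content of genes. The Hif1a transcript has 41.34% GC, lower than that of all but 10.5% of tested genes, and after correction for both properties its log2 fold change was 0.46 (SE 0.05, adjusted p 5.18e-06 in the edgeR test), which reversed the sign and made it a call. On log2(FPKM + 1) it was instead -0.23 (adjusted p 0.0497 in limma). The direction of Hif1a thus differed between settings.

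Arnt (ENSMUSG00000015522, chromosome 3 from 95434388 to 95497240), which encodes the constitutive partner of HIF-1 alpha and of the aryl hydrocarbon receptor, had 80.87, 75.81 and 73.81 CPM in the LPS libraries and 54.5, 53.11 and 60.36 CPM in the co-culture libraries. All 3 co-culture values were below all LPS values. The fall was 1.37-fold (log2 -0.46, SE 0.07, adjusted p 0.000188 in the edgeR test). Arnt is the member with the longest table length, 8007 bases against a median of 4481 over tested genes, and after the length and GC correction it changed by -0.10 on the log2 scale (adjusted p 0.137 in the edgeR test) and the call was lost.

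Egln1 (ENSMUSG00000031987, chromosome 8 from 124908587 to 124949324), which encodes PHD2, the main prolyl hydroxylase that marks HIF-1 alpha for destruction, had 25.9, 26.36 and 27.03 CPM with LPS alone and 56.24, 56.23 and 54.81 CPM in co-culture. Its libraries were close to each other, with a highest library 1.04 times the lowest in the LPS group and 1.03 times the lowest in the co-culture group, and the groups did not overlap. The rise was 2.11-fold (log2 1.08, SE 0.06, adjusted p 6.42e-07 in the edgeR test). It was above the change of 93.1% of tested genes, and across all 15 alternatives the log2 fold change stayed between 0.75 and 1.10.

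Egln3 (ENSMUSG00000035105, chromosome 12 from 54178981 to 54203860), which encodes the hydroxylase PHD3, was not detected at this depth. It had 0 counts in 5 libraries and 1 count in co-culture replicate 1, under the floor of 3 counts, and was not tested. No fold is given for it.

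Vhl (ENSMUSG00000033933, chromosome 6 from 113623959 to 113631633), which encodes the subunit that recognises hydroxylated HIF alpha, had 29.24, 30.5 and 28.95 CPM with LPS alone and 52.06, 45.17 and 47.67 CPM in co-culture. Every co-culture library was above every LPS library. The rise was 1.63-fold (log2 0.71, SE 0.07, adjusted p 1.49e-05 in the edgeR test), and it was called under all alternatives, at a log2 fold change of 0.48 to 0.76. Its promoter window held neither core.

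Hif1an (ENSMUSG00000036450, chromosome 19 from 44562850 to 44576274), which encodes the asparaginyl hydroxylase FIH, had 40.44, 42.21 and 41.15 CPM with LPS alone and 34.57, 33.09 and 35.19 CPM in co-culture. The groups did not overlap, and each was tight. The fall was 1.2-fold (log2 -0.27, SE 0.06, adjusted p 0.00356 in the edgeR test). Its size moved with the setting, to -0.45 with library totals in place of TMM scaling and to -0.17 (adjusted p 0.0214 in the edgeR test) after the length and GC correction, and it kept its call in both.

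Ndrg1 (ENSMUSG00000005125, chromosome 15 from 66929318 to 66969640), a stress-induced gene of the alpha/beta hydrolase fold family, changed most. It had 14.38, 13.51 and 16.12 CPM with LPS alone and 59.83, 59.72 and 53.8 CPM in co-culture, so that the lowest co-culture library was more than 3 times the highest LPS library. The rise was 3.93-fold (log2 1.97, SE 0.09, adjusted p 1.59e-07 in the edgeR test) and above the change of 98.5% of tested genes. Over the 15 alternatives it ran from 1.46 on log2(FPKM + 1) to 2.12 after the length and GC correction, on the log2 scale.

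Higd1a (ENSMUSG00000038412, chromosome 9 from 121848563 to 121858362), which encodes a small protein of the mitochondrial inner membrane that associates with the respiratory chain, had 28.66, 26.93 and 28.07 CPM with LPS alone and 93, 83.28 and 82.17 CPM in co-culture. Its groups stood far apart, and co-culture replicate 1 was the highest. Its log2 fold change was 1.63 (SE 0.07, adjusted p 1.49e-07 in the edgeR test) and lay between 1.34 and 1.67 under the alternatives.

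Bnip3 (ENSMUSG00000078566, chromosome 7 from 138890836 to 138909519), which encodes a receptor for mitophagy on the mitochondrial outer membrane, had 33.06, 33.69 and 36.38 CPM with LPS alone and 36.81, 47.58 and 51.13 CPM in co-culture. In CPM the groups were separated only narrowly, since co-culture replicate 1 was just above LPS replicate 3. The co-culture libraries differed 1.39-fold among themselves. On FPKM the groups overlapped, with co-culture replicate 1 (14.85) below the LPS libraries (15.53 to 17.06) and replicates 2 and 3 above them (20.05 and 21.47). The log2 fold change was 0.39 (SE 0.11, adjusted p 0.00996 in the edgeR test). It was 0.53 without co-culture replicate 1 and 0.30 without co-culture replicate 3, called both times. The call was lost with library totals (0.22, adjusted p 0.139 in the edgeR test) and on FPKM (0.19, adjusted p 0.161 in limma).

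Ankrd37 (ENSMUSG00000050914, chromosome 8 from 45996902 to 46005707), which encodes a small ankyrin repeat protein, was the weakest member detected. It had 21, 52 and 57 counts in the LPS libraries and 100, 77 and 60 counts in the co-culture libraries, that is 1.11, 2.47 and 2.38 CPM against 4.98, 3.94 and 3.2 CPM. The co-culture libraries were all higher, but the LPS libraries differed 2.22-fold among themselves. The log2 fold change was 1.00 (SE 0.27, adjusted p 0.00684 in the edgeR test), and 0.73 without LPS replicate 1. After the length and GC correction it was 0.37 (adjusted p 0.205 in the edgeR test) and not called. Ankrd37 overlaps exons of Ufsp2 on the opposite strand, and Ufsp2, named for that overlap, had 1523 to 2103 counts per library. No strand setting of the counting is given in the sources used here, so reads of the pair may not be told apart. Ufsp2 itself was not called (log2 fold change 0.01, adjusted p 0.868 in the edgeR test), but was 0.57 and called after the length and GC correction. Lrp2bp also overlaps exons of Ankrd37 on the opposite strand, with 18 counts in all. GENCODE M21 also lists antisense genes over exons of Hif1a, Bnip3, Higd1a and Ndrg1. These have no row in the deposited counts, so reads from them may be counted with the members and cannot be looked at. Gm49321, a protein-coding gene on the strand of Hif1a, overlaps exons of Hif1a and had 0 counts. Lrp2bp and Gm49321 are named for their overlap.

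**Figure D3:**
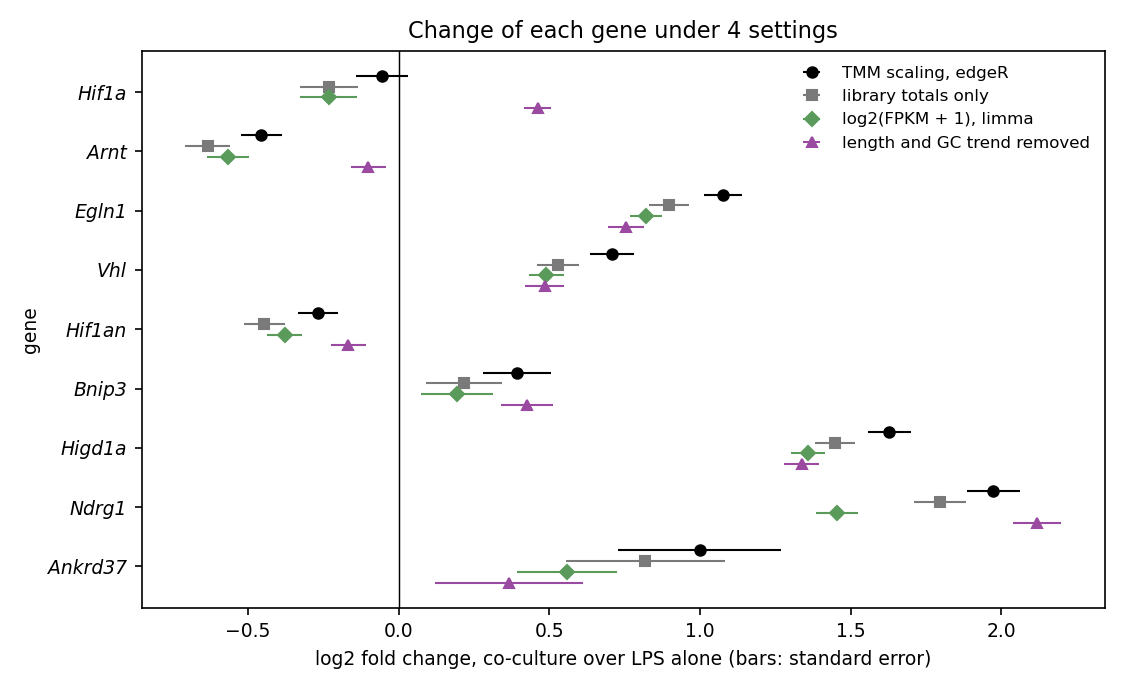
Log2 fold change of co-culture over LPS alone (horizontal axis, bars are the standard error) of the 9 tested members under TMM scaling, library totals, log2(FPKM + 1) and the length and GC correction. Ndrg1, Higd1a, Egln1 and Vhl stay to the right of 0 under all 4, whereas Hif1a moves from -0.23 to 0.46.

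The order of the members by level also changed. By FPKM, the authors' value per length, Hif1a led both groups. With LPS alone it was followed by Bnip3 (16.14 FPKM), then by Vhl, Arnt and Higd1a (10.49, 10.2 and 9.76 FPKM), whose libraries overlapped between neighbours, and then by Egln1 (7.82), Hif1an (6.64), Ndrg1 (2.37) and Ankrd37 (1.38), all without overlap. In co-culture Higd1a was second, at 26.61 FPKM, and its libraries overlapped those of Hif1a. Bnip3 (18.79), Vhl (15.13) and Egln1 (14.58) followed, each overlapping the next, and then Ndrg1 (8.23), Arnt (6.57), Hif1an (4.88) and Ankrd37 (2.46) without overlap. Ndrg1 thus passed both Arnt and Hif1an, and Egln1 passed Arnt.

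**Figure D4:**
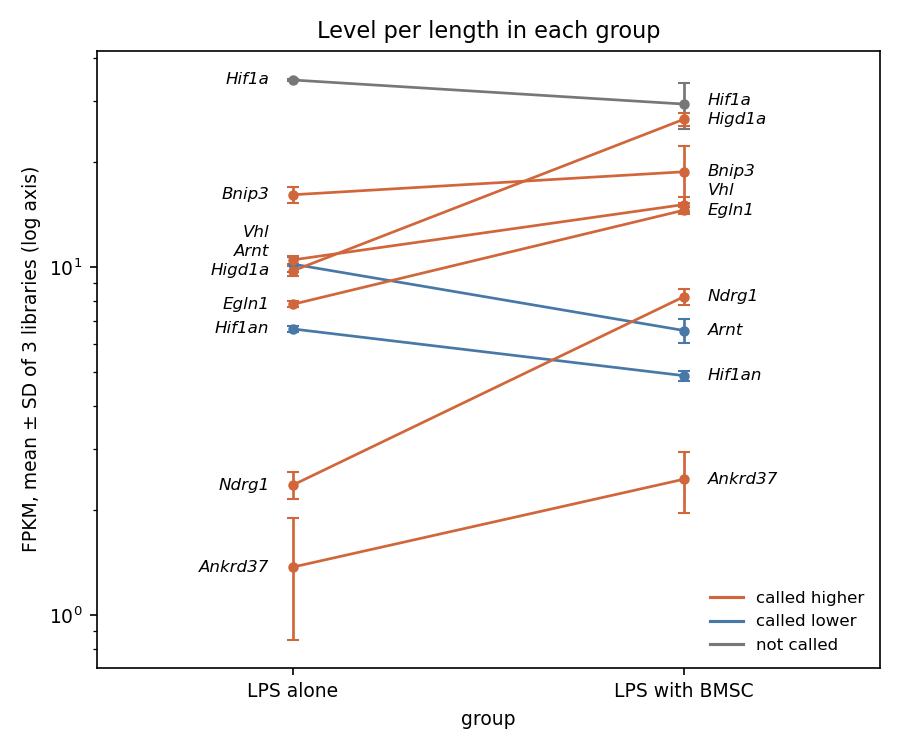
FPKM of the 9 tested members in each group (log axis, mean ± SD of 3 libraries), with lines joining the same gene and coloured by its call. The lines of Ndrg1, Higd1a and Egln1 climb and cross that of Arnt, which descends, and that of Ndrg1 also crosses Hif1an.

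Ratios of FPKM within a library do not depend on how libraries are scaled, though they do on length and GC content, and 6 were computed. Egln1 relative to Hif1a was 0.224, 0.227 and 0.230 with LPS alone and 0.581, 0.494 and 0.435 in co-culture, 2.2 times as high. In the fits with the length and GC correction the same difference between the pair was 1.22-fold. Egln1 relative to Hif1an rose most evenly, from 1.18 ± 0.0297 to 2.99 ± 0.131 (mean ± SD, n = 3 each; two-sided exact permutation p of 0.1). Vhl relative to Hif1an went from 1.58 ± 0.0246 to 3.11 ± 0.186. Hif1a relative to Arnt went from 3.38 ± 0.184 to 4.46 ± 0.441, Ndrg1 relative to Hif1a from 0.0686 ± 0.00567 to 0.285 ± 0.0522, and Higd1a relative to Bnip3 from 0.605 ± 0.0365 to 1.46 ± 0.369. In the corrected fits, Egln1 and Vhl relative to Hif1an were 1.89-fold and 1.57-fold higher, against 2.54-fold and 1.96-fold on FPKM. Ndrg1 relative to Hif1a was 3.15-fold (4.12-fold on FPKM) and Higd1a relative to Bnip3 1.88-fold (2.37-fold on FPKM). Hif1a relative to Arnt instead went up, from 1.315-fold on FPKM to 1.48-fold. The groups did not overlap in any of the 6 ratios, and each gave the exact p of 0.1 (0.1 also after adjustment), the smallest that 3 against 3 allows, so none could pass 0.05.

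The machinery around the members was described by a list of 16 other HIF regulators. Of 13 tested, 6 were called higher and 3 lower, against 37.5% and 38.0% of all tested genes. Their median log2 fold change was 0.14 against 0.001 over all genes. Elob, the elongin B subunit of the VHL ligase, was 2.55-fold higher (71.17 ± 4.63 against 181.5 ± 36.5 CPM, adjusted p 7.42e-06 in the edgeR test), but 1.37-fold after the length and GC correction, while its partners Eloc and Rbx1 were 1.45-fold and 1.49-fold higher and the cullin Cul2 1.24-fold lower. Egln2, the third prolyl hydroxylase gene, rose 1.8-fold and Siah2, a ligase for prolyl hydroxylases, 1.89-fold. Both coactivator genes fell, Ep300 2.33-fold (121.7 ± 3.44 against 52.33 ± 8.18 CPM, adjusted p 3.92e-06 in the edgeR test) and Crebbp 1.22-fold. After the length and GC correction, Crebbp and Cul2 were no longer called and changed sign, at 0.07 and 0.06 on the log2 scale. Cited2, which competes with HIF-1 alpha for the coactivators, rose 1.55-fold (524.7 ± 9.23 against 813.7 ± 12.2 CPM). With the same correction the log2 fold change of Cited2 went from 0.63 to 0.16, of Egln2 from 0.84 to 0.32 and of Siah2 from 0.92 to 0.48. That of Ep300 went from -1.22 to -0.83. Eloc and Rbx1 instead rose more, from 0.54 to 0.82 and from 0.57 to 0.92. All of these kept their calls. Eloc, Rbx1, Cul2, Siah2 and Crebbp are named after their values were seen. Epas1, which encodes HIF-2 alpha, and Hif3a never exceeded 3 counts in a library and P4htm was too low to test.

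Of 29 other targets outside glycolysis, 27 were tested, 14 of them were called higher and 7 lower, and their median log2 fold change was 0.46. Over all tested genes the shares were 37.5% higher and 38.0% lower, and the median was 0.001. A gain of 2-fold or more was seen in 8 of the 27 and a loss of that size in 2, against 8.31% and 10.2% of all tested genes. The angiogenic factor Vegfa was at 28.05 ± 1.84 CPM with LPS alone and 183.0 ± 0.95 CPM in co-culture, and Hilpda, an inhibitor of lipolysis at lipid droplets, at 33.44 ± 1.56 against 247.0 ± 15.4 CPM, a log2 fold change of 2.88 that was 2.04 after the length and GC correction. Genes that fell included Tfrc, the transferrin receptor (2.12-fold, and 1.41-fold after that correction), Kdm4c and Kdm3a, histone demethylases (2.7-fold and 1.54-fold), and Wsb1 (1.4-fold), all named after their values were seen. Kdm3a was not called after the length and GC correction (-0.14 on the log2 scale, adjusted p 0.0748 in the edgeR test). Car9, a classical hypoxia marker named likewise, was not called (log2 fold change -0.09, adjusted p 0.688 in the edgeR test), but was -0.58 after the length and GC correction (adjusted p 0.0114). Epo had 0 counts in all libraries. Of 21 glycolytic targets, 15 were called higher and 2 called lower, to be read against the same shares of all tested genes, and their median was 0.62. Tpi1, Slc16a3 and Pfkl had the smallest p. The 2 lower were Hk2, a hexokinase (1.61-fold), and the glucose transporter Slc2a3 (1.47-fold), named after their values were seen.

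**Figure D5:**
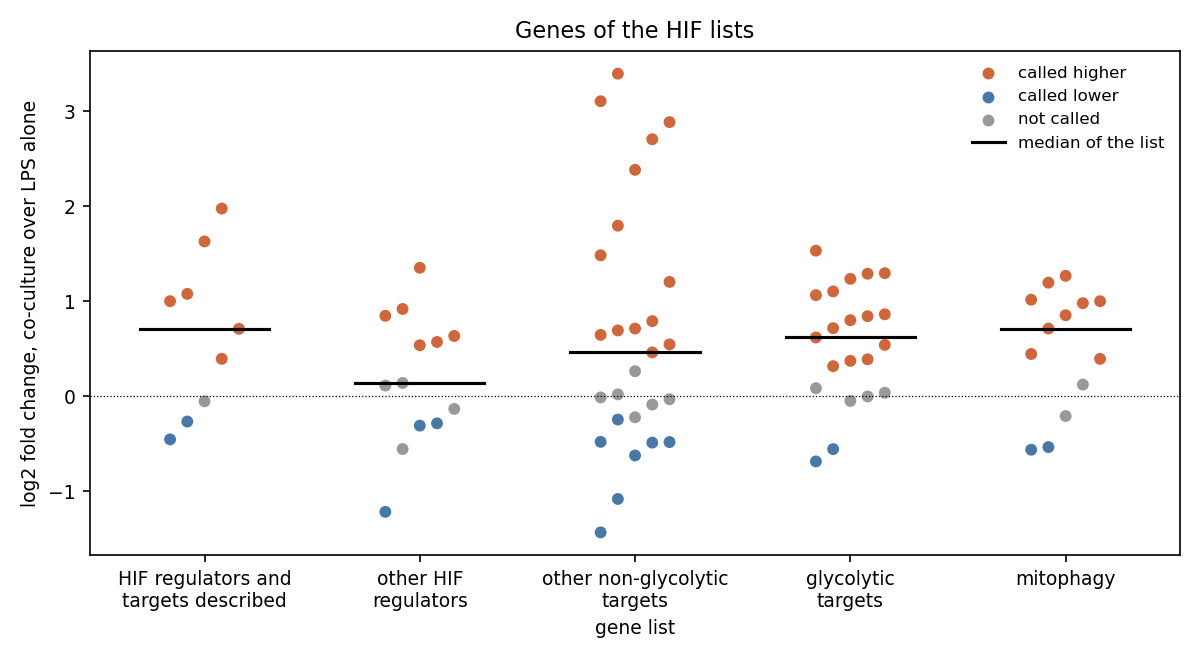
Log2 fold change of each tested gene in the members and in 4 other lists (vertical axis), coloured by call, with a line at the list median. Each list holds genes called in both directions; the widest span is among other non-glycolytic targets.

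Bnip3 acts in mitophagy, and of 15 genes of that process 13 were tested, of which 9 rose and 2 fell, and their median was 0.71. Over all tested genes 37.5% were called higher and 38.0% lower, and the median was 0.001. Map1lc3b and Gabarap, whose proteins Bnip3 binds on the autophagosome, rose 2.4-fold and 2.29-fold, and the receptor Sqstm1 2.0-fold (1443 ± 25.3 against 2885 ± 137 CPM, adjusted p 4.37e-07 in the edgeR test). The 2 that fell were Bcl2l13 (1.45-fold) and Opa1 (1.48-fold), named after their values were seen. With the length and GC correction Map1lc3b was at 1.42, Gabarap at 0.68 and Sqstm1 at 0.68 on the log2 scale, all still called higher. Bcl2l13 was then at -0.21 and still called lower, and Opa1 at 0.00 and not called. Of 11 paralogs of the members, 7 were tested, 4 were higher and none lower, to be read against the same shares. Bnip3l, the closest relative of Bnip3 and also a mitophagy receptor, rose 1.64-fold (log2 0.71, SE 0.06), Ndrg2 1.89-fold and Egln2 1.8-fold. After the length and GC correction Bnip3l was at 0.99, Ndrg2 at 0.63 and Egln2 at 0.32 on the log2 scale, all still called higher. Ndrg3 and Ndrg4 were not called, with log2 fold changes of -0.07 and -0.13 (adjusted p 0.474 and 0.185 in the edgeR test). These calls moved with the scaling. Ndrg3 was called lower with library totals (-0.24) and higher after the length and GC correction (0.38), and Ndrg4 was called lower in both (-0.31 and -0.25). Higd2a was 1.56-fold higher, but its log2 fold change went from 0.64 to -0.67 after the length and GC correction (adjusted p 2.84e-06 in the edgeR test). Ndrg3, Ndrg4 and Higd2a are named after their values were seen, and Higd1b and Higd1c were at or under 1 count. The lists share 5 genes among themselves, so their counts are not separate.

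The genes closest in pattern were found by the Euclidean distance between log2 CPM values over the 6 libraries, each gene centred on its own mean, among 11102 other genes. For Ndrg1 these were Ciart (distance 0.17), a repressor of the circadian clock, Ier3 (0.19), an immediate-early stress gene, and Gipr (0.20), the receptor of an incretin hormone. Ier3 went from 343.3, 356.9 and 367.1 CPM to 1359, 1338 and 1287 CPM. For Hif1a they were Dld (0.06), a dehydrogenase subunit of mitochondrial complexes, Ywhaq (0.07), a 14-3-3 protein, and Mbd2 (0.08), a reader of methylated DNA. Dld had 191.8, 189.6 and 193.2 CPM with LPS alone and 158.3, 180.3 and 199.6 CPM in co-culture, in the same order over co-culture replicates as Hif1a. None of these 3 was called, though Dld and Ywhaq were called lower with library totals (-0.27 and -0.23), and after the length and GC correction Dld was 0.20 and Mbd2 -0.40, both called.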

How the data were processed

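Poly(A) RNA from 6 libraries was primed with random hexamers, per the labels' protocols, which name no strand-marking step. HISAT2 2.0.5 and mm10 are named in the submitters' processing notes; for the counting tool, the annotation and its strand setting no source used here gives a name. The authors deposited whole-number read counts per gene and FPKM values, which equal count over table length and column total. An empty row was left out. For symbols on several rows, that of the highest total was used.

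Counts were tested across all genes with edgeR 4.0.16 (R 4.3.3): TMM scaling, the default expression filter by group (11103 genes), group as the only term, robust quasi-likelihood. CPM are TMM-scaled. Standard errors were derived from the F statistic. The biological coefficient of variation was 7.05%. The step was tested on simulated data in which few genes changed and both groups had the same spread. Here most tested genes were called and co-culture replicates differed more than LPS replicates, conditions that the simulation did not cover. No replicate pair held identical values, and all pairs differed beyond sampling noise.

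Alternatives were RLE factors, library totals, DESeq2 1.42.0, limma 3.58.1 on log2(FPKM + 1) and log2(FPKM + 0.1) where the mean FPKM reached 1, no filter, 10 counts in every library, a replicate block, each library left out, and a length and GC offset (natural splines, 5 degrees of freedom each, per library; GC of the longest GENCODE M21 transcript). The table's start differs from GRCm38 for every member, so gene positions are from M21 by identifier. Promoter sequences are from RefSeq.

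Members and lists were chosen with earlier results of these data known. Named genes were all members, the 3 genes of each list with the smallest p and those too low to test, and the 3 nearest patterns to Hif1a and to the member that changed most. Genes named outside this rule are said to be so, and 1 gene the rule names is not reported here. Library depth is given with the results. Floors cover counting error only.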

Additional observations from a re-analysis of the deposited data

How the results depend on the processing

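Scaling moved the whole set of genes. Calls that were higher made up 49.6% of calls with TMM, 38.3% with library totals and 39.1% on log2(FPKM + 1), while the median change over tested genes went from 0.001 to -0.177 and -0.144 (log2); members moved with it. Of the 15 alternatives, each gave 5 or more of the 9 tested members higher; 2 were lower, except for 1 with the length and GC offset, where Arnt lost its call, and 3 on log2(FPKM + 1), where Hif1a was called. With that offset Hif1a reversed, from -0.05 to 0.461, and Ankrd37 lost its call. Among the other genes named in the text, those that reversed with that offset were Cd68 (-0.267), Ptprc (0.044), Crebbp (0.068), Cul2 (0.056), Dcn (0.604), Dld (0.202), Higd2a (-0.669) and Ndrg3 (0.384). Opa1 went from -0.56 to 0.00. The cause was not tested. Under library totals and on FPKM, Bnip3 lost its call. The count of other HIF regulators called lower was 3, and 5 with library totals and 3 to 5 when a library was left out (5 without co-culture replicate 3). Mitophagy genes called lower went from 2 to 1 with the length and GC offset. Paralogs called lower went from 0 to 2 with that offset, 3 with library totals, 2 on either FPKM scale and 0 to 1 when a library was left out (1 without co-culture replicate 3). Same-numbered replicates did not deviate together (correlations of -0.0416, -0.0239 and 0.0402), so the numbers were not taken as pairs; with a replicate block, 4070 genes were called higher and 4147 lower against 4160 and 4222. Ankrd37, at 21 to 100 counts, is limited by depth, and Egln3 could not be tested.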
